A study of Mus musculus with 3 samples.

Results

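Oxidative phosphorylation was followed through the genes for its subunits, chosen by symbol: Nduf, Uqcr, Atp5, Cox4 to Cox8, Sdha to Sdhd, and the mt-Nd, mt-Co, mt-Atp and mt-Cytb genes of the mitochondrial genome. The deposited counts cover 56980 genes, and 113 of them met the rule, 100 nuclear and 13 mitochondrially encoded (mt-), after 15 pseudogene entries ending in -ps were dropped. They were read in spleen cells of wild-type mice, in 3 single-cell libraries with 1 library per group. Control mice were not irradiated. IR mice received 8.5 Gy and a treatment labelled "colvent control", read here as the vehicle, which is uncertain. IR_HSO mice received 8.5 Gy and HSO, which the study's title gives as hemp seed oil. The time from irradiation to sampling, the dose, route and schedule of HSO, the age and sex of the mice and the number of mice per library are not given in the sources used here.

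The respiratory chain sits in the inner mitochondrial membrane. Complexes I and II pass electrons from NADH and succinate to ubiquinone, complex III hands them to cytochrome c, complex IV (cytochrome c oxidase) reduces oxygen, and complex V is the ATP synthase. Every complex except II is built from subunits of both genomes. Resting lymphocytes draw largely on this pathway for ATP, activated T and NK cells raise both it and glycolysis, and plasma cells use it while they secrete antibody.

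Cells with at least 500 unique molecular identifiers (UMIs) and under 10% mt- UMIs were gated. The T gate (at least 2 UMIs over Cd3d, Cd3e and Cd3g) held 3718, 8110 and 6905 cells in the Control, IR and IR_HSO libraries, the order used for every set of 3 values here. The NK gate (at least 1 Ncr1 UMI and no Cd3) held 336, 1510 and 1035 cells and the plasma gate (at least 10 Jchain UMIs) 58, 249 and 298. Cells in the plasma gate and another gate, 14, 123 and 88, were left out. All 10 T, 9 NK and 8 plasma markers were seen in their own gate in each library. These lists include the gating genes. All 10 T markers were also seen in the plasma gate and all 8 plasma markers in the T gate, so being seen does not set the gates apart. Per 1000000 UMIs the T markers summed to 6261, 6570 and 5344 in the T gate and 130, 160 and 164 in the plasma gate. The libraries held 47298108, 50836313 and 45636807 UMIs, median UMIs per cell were 5475, 3565.5 and 3541 in T, 4101, 2883.5 and 3681 in NK and 19732, 10803 and 5041.5 in plasma cells, and pairs of libraries shared 34 to 54 cell barcodes. Cells with Cd8a or Cd8b1 made up 39.8%, 11.6% and 12.4% of the T gate and cells with Foxp3 6.56%, 10.5% and 22.2%. Other RNA differed too: the ribosomal RNA gene Rn18s-rs5 took 2.91%, 1.12% and 4.68% of T gate UMIs, and per 1000000 UMIs the 12 pancreatic acinar markers summed to 2.40, 2172 and 894 in the T gate and 3.22, 4441 and 7787 in the NK gate, with 3 and 1 of 12 seen in Control and all 12 in the other libraries. The 6 erythroid markers summed to 532, 1.12 and 0.938 in T and 4187, 2.08 and 1.39 in NK cells, where 3 of 6 were at 0 in IR_HSO, and the 6 B cell markers to 485, 35.4 and 24.4 in T, 1011, 38.8 and 22.3 in NK and 1352, 604 and 508 in plasma cells. The 9 NK markers summed to 601, 2041 and 1399 in the T gate, with all 9 seen in each library. The part these play in the results was not tested unless a value is given. With 1 library per group there is no test and no p-value, every difference is one between libraries, and the bracketed 95% intervals cover counting error only.

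As summed UMIs, nuclear members made up 1.40%, 1.60% and 1.44% of T gate UMIs, 1.53%, 1.64% and 1.56% in NK cells and 1.24%, 0.717% and 0.815% in plasma cells. IR was the highest library for nuclear members in T and NK cells and the lowest in plasma cells. The log2 ratio of IR to Control was 0.20 [0.19, 0.20] in T, 0.10 [0.08, 0.12] in NK and -0.79 [-0.82, -0.76] in plasma cells. That of IR_HSO to IR was -0.16 [-0.16, -0.15], -0.07 [-0.09, -0.06] and 0.18 [0.16, 0.21]. Across other filters, gates and denominators the T cell ratios ran from 0.08 to 0.24 and from -0.17 to -0.09, while in NK cells both took either sign (-0.06 to 0.14 and -0.10 to 0.06). A sum of UMIs cannot tell fewer transcripts per cell from a larger share of other RNA.

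The mt- members followed another order. They took 1.04%, 1.09% and 1.36% of T gate UMIs, 0.796%, 1.04% and 1.21% in NK cells and 0.673%, 0.459% and 0.633% in plasma cells, so in T and NK cells IR_HSO was highest and Control lowest. The log2 ratio of IR_HSO to IR was 0.31 [0.30, 0.32] in T, 0.23 [0.21, 0.24] in NK and 0.46 [0.43, 0.49] in plasma cells. That of IR to Control was 0.07 [0.06, 0.07], 0.38 [0.35, 0.41] and -0.55 [-0.59, -0.51]. Over the alternatives the IR to Control ratio ran from -0.05 to 0.14 in T and from 0.19 to 0.69 in NK cells, and the IR_HSO to IR ratio from 0.21 to 0.38, 0.07 to 0.35 and 0.20 to 0.52 in the 3 gates. Set against each other, there were 0.747, 0.683 and 0.944 mt- UMIs per nuclear member UMI in T, 0.520, 0.630 and 0.776 in NK and 0.542, 0.640 and 0.776 in plasma cells. In the main setting IR_HSO thus had the highest ratio of mitochondrial to nuclear transcripts in each gate, 0.47, 0.30 and 0.28 above IR on the log2 scale. This did not hold in plasma cells with cells holding other markers left out. There the log2 ratio of IR_HSO to IR was 0.20 for mt- and 0.24 for nuclear members, on 74 IR and 144 IR_HSO cells. With each NK cell weighing alike, IR and IR_HSO lay closer, at 1.30% and 1.37% mt- and 1.46% and 1.45% nuclear.

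**Figure D1:**
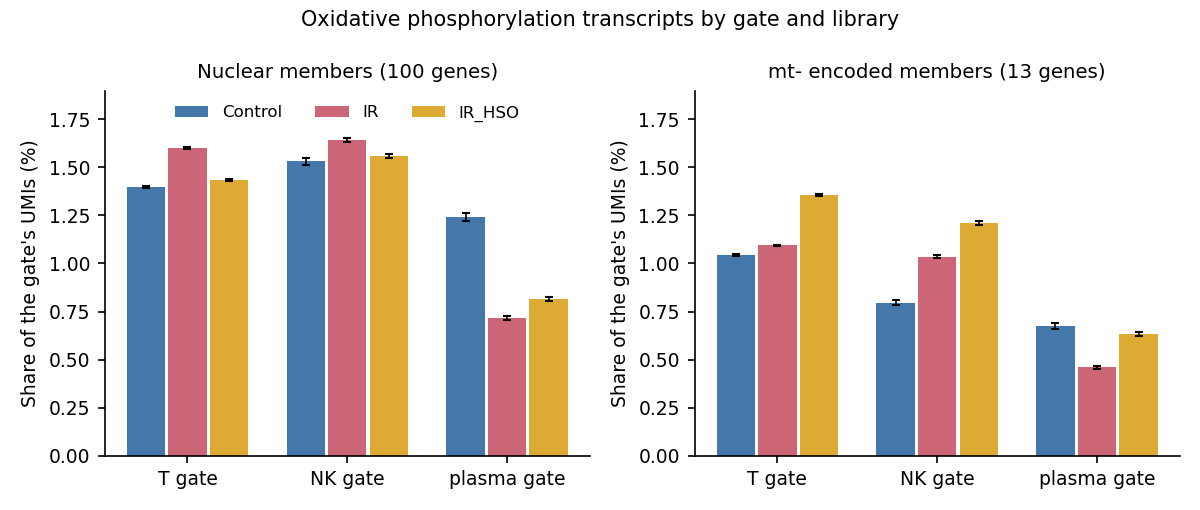
Share of a gate's UMIs (%, vertical axis) from the 100 nuclear members (left) and the 13 mt- members (right) in T, NK and plasma gates, with 1 bar per library and exact 95% counting intervals. In T cells the nuclear share was highest in IR at 1.60% and the mt- share highest in IR_HSO at 1.36%.

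The limit of 10% on mt- UMIs uses genes that are themselves members, so its reach was measured. From the T gate it removed 1.01% [0.717, 1.39], 1.61% [1.35, 1.91] and 3.88% [3.45, 4.36] of cells, and 1.75%, 2.83% and 6.76% of NK cells. Of all cells with 500 UMIs it removed 3.75%, 4.76% and 16.5%. Without the limit the log2 ratio of mt- members, IR_HSO to IR, was 0.36 in T and 0.32 in NK cells, and with a limit of 5% it was 0.21 and 0.24. The median T cell gave 1.01%, 1.02% and 1.23% of its UMIs to mt- members, with quartiles of 0.793% and 1.249% in Control, 0.779% and 1.37% in IR and 0.923% and 1.67% in IR_HSO, so the ranges between quartiles overlapped. The mitochondrial ribosomal RNAs, which are not members, took 1.10%, 1.23% and 1.89% of T gate UMIs.

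Single members were compared as UMIs per 1000000 UMIs of the gate (CPM) where they averaged at least 10 CPM over the libraries, and medians are on the scale log2 of the ratio of CPM + 1. A member was counted as higher when its CPM + 1 lay at least 25% above that of the other library and as lower when at least 20% below it, equal steps on a log scale. In T cells 85 of 100 nuclear members averaged 10 CPM or more. Against Control, 24 of these 85 counted as higher in IR and 2 as lower. Over all 8362 features of that level 22.9% counted as higher and 5.62% as lower, so the members' share of 28.2% higher lay near the background. Their median log2 ratio was 0.21 against 0.13 over all features. After centring on that 0.13, 10 of the 85 were higher and 6 lower, beside 1119 and 859 of all 8362 features. At 1.5-fold 1 was higher, Cox6b2, which reached 10 CPM only through IR and IR_HSO, and 1 lower, Atp5g2. The share of all features past 1.5-fold is not given here, so counts at that fold have no background in either comparison. From IR to IR_HSO 3 members were higher (15% of all features) and 19 lower (13.3%), or 22.4% of members, with a median of -0.19 against 0.02, and at 1.5-fold 3 were lower.

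Complex I, the NADH dehydrogenase, is the largest group. Its nuclear subunits summed to 0.382%, 0.461% and 0.413% of T gate UMIs, and against Control 16 of 37 counted as higher in IR (43.2%, beside 22.9% of all features) and 0 as lower. After centring on the median of all features 7 of the 37 were higher and 2 lower, beside 1119 and 859 of all 8362 features. Ndufb8, an accessory membrane subunit, was at 87.9, 126 and 101 CPM, 1.43-fold [1.36, 1.51] the Control level in IR. Ndufa11, at 95.6, 136 and 123 CPM, and Ndufb6, at 61.8, 88.3 and 68.4 CPM, were higher by the same 1.43-fold. All 3 accessory subunits were thus lowest in Control. Ndufa3 was highest in Control, at 134, 109.8 and 113 CPM, a ratio of 0.818 [0.779, 0.858], which does not reach the limit. From IR to IR_HSO 0 of the 37 counted as higher and 8 as lower (21.6%, beside 13.3%). Furthest was Ndufab1, the acyl carrier protein that also serves mitochondrial fatty acid synthesis, at 69.0, 93.8 and 45.2 CPM, a ratio of 0.482 [0.452, 0.515]. The 8 complex I assembly factors (Ndufaf genes) summed to 0.0188%, 0.0202% and 0.0187%, and of 6 at 10 CPM Ndufaf2, at 16.6, 21.1 and 18.6 CPM, passed the limit, with 1.27-fold [1.12, 1.44] the Control level in IR. Ndufaf7, at 16.1 CPM in Control and 20.2 in IR, lay at the limit and was not counted because of the added 1 CPM.

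Complex II, succinate dehydrogenase, has no mt- subunit and summed to 0.0257%, 0.0288% and 0.0258% in T cells. Its log2 ratios of 0.16 for IR to Control and -0.16 for IR_HSO to IR lay close to those of all nuclear members, 0.20 and -0.16. Sdha, the flavoprotein, was at 94.6, 97.7 and 100.5 CPM, and both of its intervals span no change. Sdhb, the iron-sulfur subunit, was at 80.3, 93.6 and 69.3 CPM, and its IR_HSO to IR ratio of 0.740 [0.700, 0.783] passed the limit. The membrane anchors did not reach the limit: Sdhc was at 40.0, 46.8 and 43.8 CPM and Sdhd at 42.0, 49.6 and 44.1 CPM. In IR they were at 1.17-fold [1.08, 1.27] and 1.18-fold [1.09, 1.28] the Control level. For complex III, which moves electrons from ubiquinol to cytochrome c, the 8 nuclear genes summed to 0.148%, 0.165% and 0.154% and 0 passed the limit in either comparison. Uqcr11, a small subunit, was at 93.8, 92.0 and 110.3 CPM, 1.20-fold [1.14, 1.26] higher in IR_HSO than in IR.

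Complex IV summed to 0.406%, 0.463% and 0.409% in T cells. Of its 13 nuclear members at 10 CPM, 3 counted as higher in IR against Control (23.1%, at the 22.9% of all features): Cox8a at 482, 646 and 539 CPM, Cox5a at 225, 291 and 204 CPM, and Cox6b2, described further on. Cox4i1, the ubiquitous form of subunit 4, was at 656, 793 and 677 CPM, 1.21-fold [1.18, 1.23] higher in IR. Ndufa4, now placed in complex IV, was at 280.3, 340.3 and 265 CPM, with an IR_HSO to IR ratio of 0.779 [0.756, 0.802]. Cox6a1, the common form of subunit 6A, was at 198, 213 and 143 CPM, with a ratio of 0.671 [0.645, 0.697]. Against these, Cox7c was lowest in IR, at 362, 308 and 407 CPM, 1.32-fold [1.29, 1.36] higher in IR_HSO. Cox7a2l, which helps join complexes III and IV in supercomplexes, was highest in Control, at 601, 539.6 and 458 CPM.

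Complex V, the ATP synthase, summed to 0.417%, 0.463% and 0.416% in T cells. Of 17 members 7 counted as lower and 2 as higher in IR_HSO than in IR, 41.2% and 11.8% beside 13.3% and 15% of all features. Atp5o, the stalk subunit that confers oligomycin sensitivity, was at 177, 236 and 138 CPM, a ratio of 0.584 [0.562, 0.606]. Atp5l, a subunit of the membrane part, was at 138, 98.0 and 293 CPM, 2.99-fold [2.87, 3.11] higher in IR_HSO. Subunit c of the membrane ring comes from 3 genes with the same mature product. Atp5g1 was at 199, 276 and 169.9 CPM, Atp5g3 at 188, 262 and 213 CPM and Atp5g2 at 28.0, 14.9 and 57.7 CPM. Atp5g1 and Atp5g3 were thus highest in the library where Atp5g2 was lowest, IR. Atp5g2 gave 6.77%, 2.70% and 13.1% of subunit c UMIs in T cells, 6.65%, 2.48% and 12.2% in NK cells and 4.82%, 1.93% and 9.74% in plasma cells. The ATP synthase inhibitor, listed as Atpif1 and so outside the symbol rule, was at 69.5, 93.4 and 98.0 CPM in T cells.

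**Figure D2:**
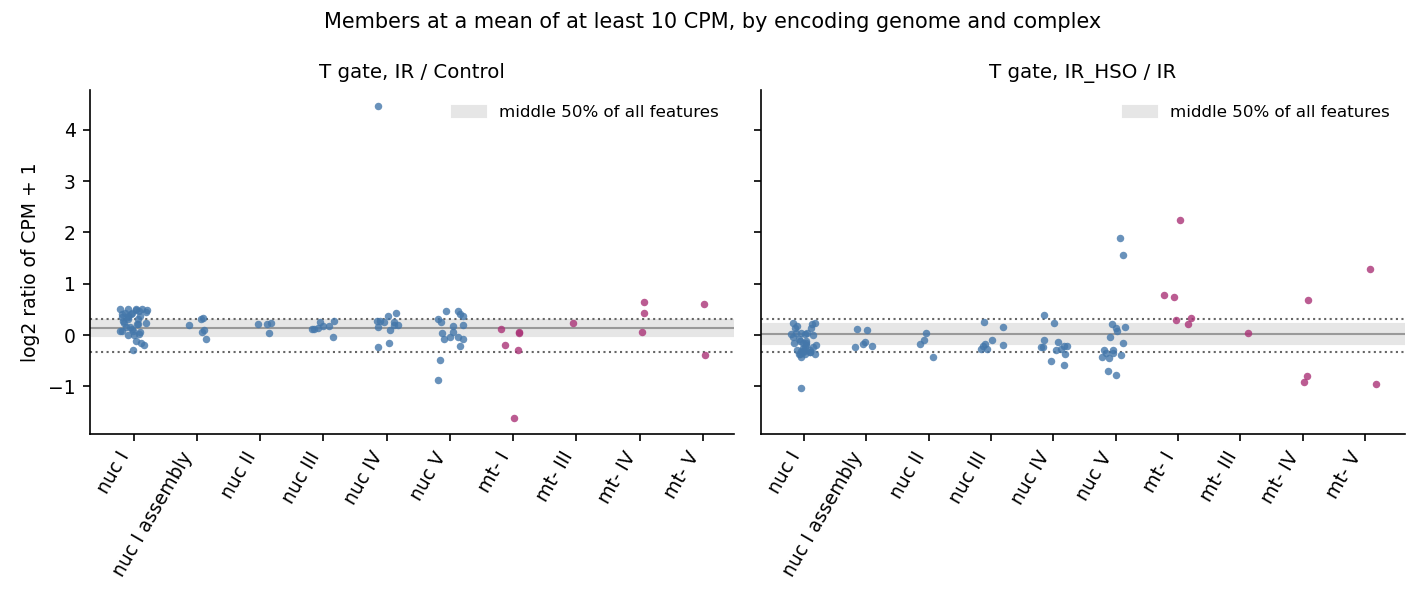
Log2 ratio of CPM + 1 in the T gate (vertical axis) for each member averaging at least 10 CPM, by encoding genome and complex, for IR over Control (left) and IR_HSO over IR (right). The grey band is the middle 50% of all 8362 features with its median, dotted lines mark the limits for higher and lower, points are spread sideways for sight, and the point at 4.46 on the left is Cox6b2.

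In NK cells the nuclear members lay closer to no change. Of 84 at 10 CPM, 10 counted as higher and 5 as lower in IR against Control, where 20.2% and 17.1% of all 8405 features were, with a median of 0.10 against 0.01. Atp5g3, at 162, 256 and 209.9 CPM, and Atp5g1, at 163, 243 and 168 CPM, were higher in IR, as were Cox5a, at 243, 353 and 272 CPM, and the complex I subunit Ndufc2, at 81.1, 124 and 106 CPM. Lower in IR were Atp5g2, at 23.2, 12.7 and 52.4 CPM, Ndufa3, at 169, 101 and 114 CPM, Atp5l, at 151, 95.1 and 321 CPM, and Atp5k, at 147, 104 and 132 CPM. From IR to IR_HSO 7 were higher (12.3% of all features) and 13 lower (17.2%). At the lower end were Ndufab1, at 66.3, 85.6 and 42.0 CPM, Atp5o, at 190.4, 218 and 134 CPM, Atp5g1, and the complex III subunit Uqcrb, at 196, 211 and 153 CPM. The upper end held Atp5g2 and Atp5l with Cox7c, at 372, 299 and 421 CPM, and Ndufb1 of complex I, at 151, 117 and 162 CPM. In complex II no member passed the limit between Control and IR, and Sdhb, at 117, 115 and 85.6 CPM, was lower in IR_HSO at a ratio of 0.744 [0.650, 0.850]. At 1.5-fold 2 members were higher and 3 lower in IR, and 2 higher and 2 lower in IR_HSO, again with no share of all features beside them.

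In plasma cells nearly every nuclear member took a smaller share in IR than in Control: of 82, 78 counted as lower and 0 as higher. The same held for most genes, since 80.7% of all 5245 features counted as lower and 4.8% as higher, and the median of the members was -0.78 against -0.80. After centring on the median of all features, 15 of the 82 were higher and 16 lower, beside 1455 and 1455 of all 5245 features. Immunoglobulin genes took 44.5%, 66.5% and 61.4% of plasma UMIs. Of the UMIs left without immunoglobulin, ribosomal, pancreatic, haemoglobin and mt- genes, nuclear members were 2.95%, 2.87% and 3.12%, a log2 ratio of IR to Control of -0.04, and mt- members stood at 1.60%, 1.84% and 2.42% relative to the same UMIs, where the ratio turned to 0.20. Among the lowest in IR by ratio were Atp5g2, at 23.2, 5.53 and 26.4 CPM, the complex I subunit Ndufb1, at 165, 53.7 and 80.3 CPM, and Sdhd, at 46.3, 15.3 and 17.8 CPM. The smallest differences among those with an interval clear of no change were in Atp5d, at 187, 158 and 169 CPM, Ndufa13, at 218, 173 and 199.9 CPM, Ndufb10, at 112, 87.2 and 88.1 CPM, and Ndufa6, at 97.8, 76.2 and 95.5 CPM. From IR to IR_HSO 26 of 82 were higher (29.4% of all features) and 3 lower (13.1%), a share of higher members near the background. Ndufb4, at 12.9, 4.88 and 17.8 CPM, was 3.65-fold [2.01, 7.02] higher and Cox7c, at 265, 127 and 229 CPM, 1.80-fold [1.58, 2.04] higher, while Ndufaf2, at 18.9, 14.0 and 8.17 CPM, Atp5g1, at 276, 176 and 146 CPM, and Ndufb9, at 197, 153 and 130.1 CPM, were lower. Control values rest on 58 cells.

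The 13 mitochondrially encoded genes did not differ as one, although 12 of them are cut from a long transcript of the heavy strand and mt-Nd6 comes from the light strand. In T cells 12 reached 10 CPM, and against Control 3 counted as higher and 2 as lower in IR, 25% and 16.7% beside 22.9% and 5.62% of all features. From IR to IR_HSO 6 were higher and 3 lower, 50% and 25% beside 15% and 13.3%. The complex I genes mt-Nd1, at 1936, 2030.4 and 2487 CPM, mt-Nd2, at 1719, 1507 and 1739 CPM, and mt-Nd4, at 1502, 1537 and 1943 CPM, differed by at most 1.26-fold between IR and IR_HSO. mt-Cytb, the complex III gene, was at 3215, 3779 and 3899 CPM, nearly level between the irradiated libraries. mt-Nd5 was at 507, 551 and 952 CPM, 1.73-fold [1.69, 1.76] higher in IR_HSO, and mt-Co1, the catalytic subunit of complex IV, at 1097, 1150.2 and 1859.8 CPM, 1.62-fold [1.60, 1.64] higher. mt-Nd6, from the light strand, was at 54.7, 44.3 and 74.6 CPM.

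mt-Nd3, a complex I subunit, was at 138, 44.5 and 214 CPM in T cells, 104, 44.7 and 196 in NK cells and 98.6, 21.2 and 106 in plasma cells, lowest in IR in each gate. In T cells its ratio of IR to Control was 0.321 [0.302, 0.342] and IR_HSO was 4.82-fold [4.55, 5.10] higher than IR. mt-Atp8, of the ATP synthase, was at 152, 116 and 285 CPM in T, 108, 102 and 239 in NK and 85.8, 36.5 and 107 in plasma cells, again lowest in IR. In NK cells its IR to Control ratio of 0.946 [0.792, 1.13] spans no change. mt-Nd4l, below 10 CPM on average, was at 7.92, 5.49 and 11.3 CPM in T cells. Another 3 genes were highest in IR in T and NK cells. mt-Atp6 was at 72.6, 110.3 and 56.1 CPM in T and 52.1, 106 and 52.2 in NK cells, mt-Co3 at 30.03, 40.7 and 23.1 in T and 25.1, 40.9 and 17.6 in NK cells, and mt-Co2 at 12.5, 20.2 and 10.3 in T and 9.65, 22.2 and 8.35 in NK cells. mt-Atp8 and mt-Atp6 are neighbours that share 43 bases, yet from IR to IR_HSO they differed in opposite directions in T cells, 2.46-fold [2.37, 2.56] higher and at a ratio of 0.509 [0.480, 0.540]. Rn18s-rs5 had the same library order as mt-Nd3 and mt-Atp8, and its part was not tested.

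Several of these counts are uncertain, because stretches of mitochondrial DNA copied into the nuclear genome can carry the same letters, and how reads that fit more than 1 place were treated is not given in the sources used here. Among nuclear GENCODE M21 transcripts, 6 of the 13 genes had a match of at least 95% identity over at least 90% of their length. It was 100% identical over 681 of 684 bases for mt-Co2, 678 of 681 for mt-Atp6, 783 of 784 for mt-Co3 and 294 of 297 for mt-Nd4l, 99.7% identical over 345 of 348 for mt-Nd3 and 97.6% over all 1545 bases of mt-Co1. The genes at the copies had at most 2.92 CPM each in T cells. Shorter matches covered 876 of 1378 bases of mt-Nd4 at 100% identity, 510 of 1038 of mt-Nd2 at 96.7% and 954 of 1824 of mt-Nd5 at 95.2%. In those transcripts no match of at least 100 bases at 95% identity was found for mt-Nd1, mt-Atp8, mt-Nd6 or mt-Cytb. Nuclear DNA outside annotated transcripts was not searched, so the search cannot show that these genes lack a nuclear copy. With the 6 genes matched over at least 90% left out, chosen after the values had been seen, the log2 ratio of summed mt- members was 0.07 in T and 0.41 in NK cells for IR to Control, and 0.25 and 0.16 for IR_HSO to IR.

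**Figure D3:**
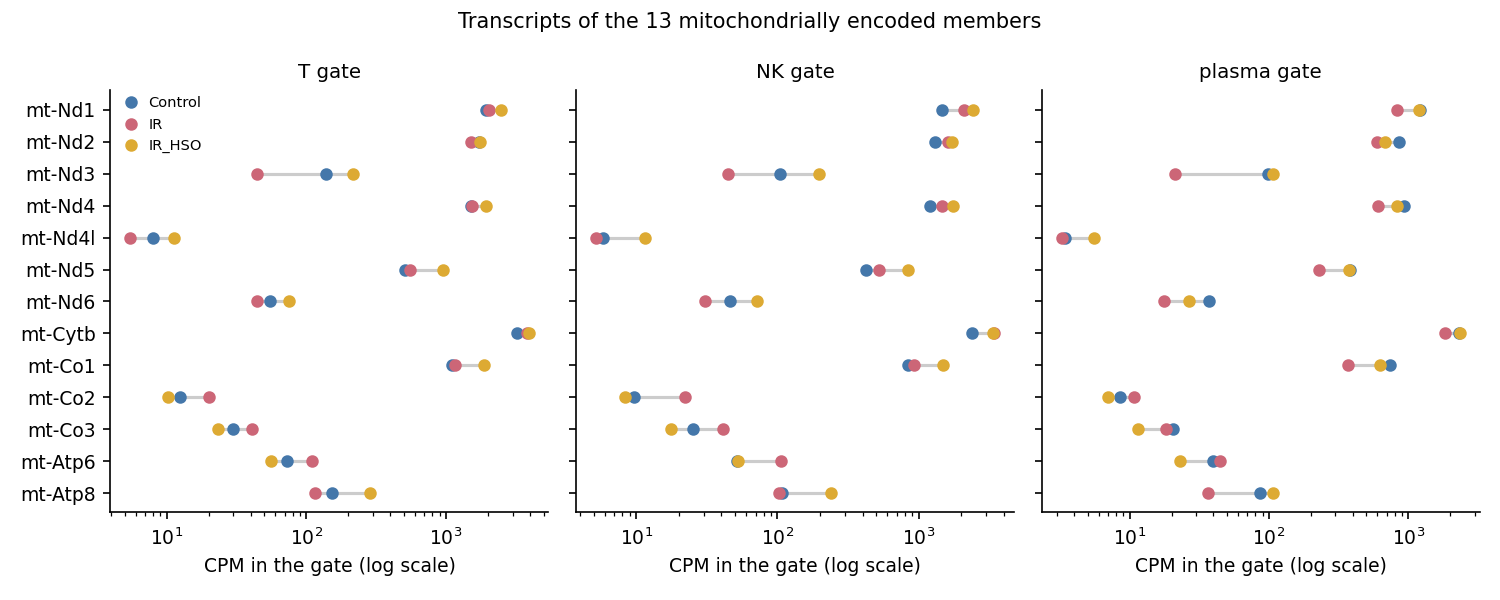
CPM of the 13 mt- genes (log axis, 1 row per gene) in T, NK and plasma gates, 1 point per library joined by a grey line. For mt-Nd3 the IR point lies far left of the others in each gate, and for mt-Co2, mt-Co3 and mt-Atp6 it lies right of the others in T and NK cells.

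Members were also counted over all gates at once. Of 93 members at 10 CPM in all 3 gates, 8 counted as higher in IR_HSO than in IR in each gate: Atp5l, Cox7c, Atp5g2, mt-Co1, mt-Atp8, mt-Nd3, mt-Nd5 and mt-Nd6. Another 3 were lower in each: Ndufab1, mt-Atp6 and mt-Co3. That was 8.60% higher and 3.23% lower, beside 2.94% and 3.58% of all 4830 features, so the share of lower members lay near the background. The 8.60% pools both genomes: of the genes higher in each gate only Atp5l, Cox7c and Atp5g2 are nuclear. It does not describe the nuclear members alone. Between Control and IR 0 members were higher and 3 lower in each gate, Atp5l, Atp5g2 and mt-Nd3, or 3.23% lower beside 2.94% of all features, again near the background, while 1.47% of all features were higher. The comparisons share the IR library, so a value that is low there counts in both. In plasma cells Atp5l was at 79.8, 28.6 and 100.3 CPM and Ndufab1 at 71.2, 60.5 and 25.6 CPM, beside the T and NK values above. The gates come from the same libraries, so they are not independent of each other. Atp5l, Atp5g2 and mt-Nd3 had the library order of Rn18s-rs5 in each gate. How many other features had that order is not given here, and the part of Rn18s-rs5 was not tested. In GENCODE M21 41 of 95 nuclear symbols found overlap another gene and 32 overlap one on the other strand. Of the members named here the latter are Atp5d, Atp5l, Atp5o, Cox4i1, Cox5a, Cox6a2, Ndufa3, Ndufa4l2, Ndufa11, Ndufa13, Ndufab1, Ndufaf2, Ndufb6, Sdha and Uqcrb. The sources used here do not state how counting treated the strand. Whether reads of those neighbours entered the counts was not tested.

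**Figure D4:**
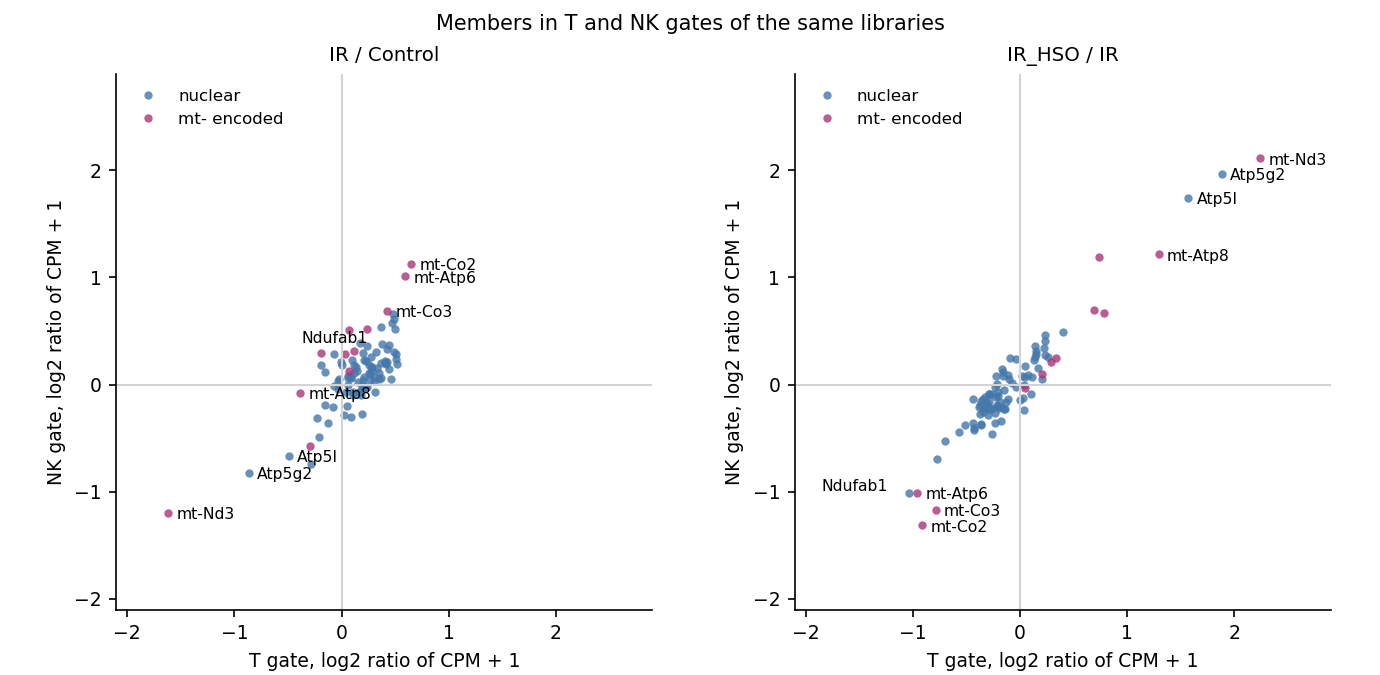
Log2 ratio of CPM + 1 of members in the T gate (horizontal axis) against the NK gate (vertical axis) for IR over Control (left) and IR_HSO over IR (right), nuclear members in blue and mt- members in purple. On the right mt-Nd3, Atp5g2, Atp5l and mt-Atp8 lie at the upper end and mt-Co2, mt-Co3, mt-Atp6 and Ndufab1 at the lower end in both gates.

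Cox6b2 had the widest difference of the nuclear members in T cells. It encodes an isoform of the COX6B subunit of complex IV known from testis, beside Cox6b1, the form of most tissues. The RefSeq sequences of the 250 bases before each start site are printed because the pair serves the same subunit from separate promoters, on chromosome 7 of build GRCm38.p6, minus strand, 5′ to 3′ (chr7:30626115-30626364 for Cox6b1, chr7:4753095-4753344 for Cox6b2), whereas the deposited counts used GRCm39. Capitals mark a match to the GABPA motif CCGGAAG, read on the other strand.
Cox6b1: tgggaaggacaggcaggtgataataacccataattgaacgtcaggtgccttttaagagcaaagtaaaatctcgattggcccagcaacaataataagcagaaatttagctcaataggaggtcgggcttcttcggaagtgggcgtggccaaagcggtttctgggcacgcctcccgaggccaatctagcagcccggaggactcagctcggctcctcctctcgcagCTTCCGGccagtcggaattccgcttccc
Cox6b2: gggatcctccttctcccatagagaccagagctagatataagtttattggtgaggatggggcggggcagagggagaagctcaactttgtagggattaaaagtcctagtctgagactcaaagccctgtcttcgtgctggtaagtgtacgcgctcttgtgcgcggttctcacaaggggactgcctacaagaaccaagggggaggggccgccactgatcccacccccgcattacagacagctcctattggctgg

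Motifs of 4 factors known to regulate respiratory genes were searched on both strands, overlaps allowed: NRF1 (GCGCANGCG), GABPA (CCGGAAG), YY1 (AAGATGGCG) and ERRA (TCAAGGTCA). In these 250 bases Cox6b1 held 1 GABPA match and Cox6b2 held none of the 4. Among the 77 of 99 nuclear symbols with a promoter in the table, NRF1 was found in 18.2% and GABPA in 16.9%, against 5.33% and 7.05% of all 27025 promoters. YY1 was found in 0 and ERRA in 1 of the 77, against 0.607% and 0.366% of all promoters, too few to compare as shares. The p53 decamer, added after the Cox6b2 values had been seen, was found in 3 of the 77 members against 7.18% of all promoters, and in neither sequence above. A match describes letters only.

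In T cells Cox6b2 had 31, 1741 and 1376 UMIs, or 1.38, 51.4 and 47.8 CPM, 37.3-fold [26.2, 55.0] the Control level in IR. Over the alternatives its log2 ratio of CPM + 1 ran from 3.83 with a single Cd3 UMI asked for to 5.28 with cells holding other markers left out, around 4.46. By log2 ratio it stood at place 33 from the top of 8362 features. It reached the mean of 10 CPM only through IR and IR_HSO. Other features low in Control could enter the same way, so the filter shapes this place. Over the whole T gate IR_HSO and IR were close, at a ratio of 0.931 [0.866, 0.999]. NK cells were lower, at 1.93, 10.2 and 11.4 CPM on 3, 49 and 49 UMIs, and plasma cells were at 1.72, 4.88 and 6.32 CPM on 2, 15 and 17 UMIs, where the IR to Control interval [0.662, 25.6] spans no change. After each cell was thinned to 1000 UMIs, 0.0540%, 5.28% and 4.75% of T cells held a Cox6b2 UMI, leaving out 15, 229 and 91 shallower cells. For NK cells the shares were 0.608%, 1.03% and 1.12%, leaving out 7, 157 and 54. Without thinning the shares came to 0.538%, 13.5% and 12.5% for T cells and 0.893%, 2.98% and 3.86% for NK cells. T cells were thus above NK cells of the same library in IR and IR_HSO, both before and after thinning. In IR 720 T cells had 1 UMI and 378 had 2 or more, with at most 9 in a cell, while in Control 1 T cell held 10 of the 31 UMIs.

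Within the T gate the level differed by subset. T cells with Cd8a or Cd8b1 were at 2.08, 54.9 and 64.4 CPM, 26.3-fold [16.9, 43.3] the Control level in IR, where IR_HSO over IR was 1.17-fold [0.989, 1.39]. Those with Cd4 and no Cd8 were at 0.510, 50.04 and 44.0 CPM, 98.0-fold [38.1, 361] the Control level in IR and an IR_HSO to IR ratio of 0.879 [0.782, 0.988]. T cells with Foxp3, the regulatory T cell factor, were below both in IR and IR_HSO, at 1.18, 21.7 and 29.6 CPM. In them IR_HSO over IR was 1.36-fold [1.06, 1.77], the other direction from the whole gate. A split by Cdkn1a, the p53 target p21, was chosen after the Cox6b2 values had been seen. Cells with a Cdkn1a UMI were 0.646%, 38.8% and 31.2% of the T gate. They held 6.10, 77.8 and 74.2 CPM of Cox6b2 against 1.31, 30.3 and 31.9 in those without. Among those with it IR was 12.8-fold [3.52, 105] the Control level, on 2 Control UMIs. Cells with Cdkn1a held 2.57-fold [2.32, 2.84] more in IR and 2.33-fold [2.09, 2.59] more in IR_HSO. Their median depth in IR was 3962 against 3329 UMIs, and the part of depth was not tested. Of all COX6B UMIs in T cells Cox6b2 gave 0.490%, 14.1% and 15.0%, and Cox6b1 itself was at 280.0, 312 and 271 CPM. Control cells with B cell markers and no Cd3 were at 4.83 CPM on 73 UMIs, of which 1 cell held 26, and the 77 and 33 such cells in IR and IR_HSO held 0 UMIs. Those cells held 232206 and 132087 UMIs of all genes, and the upper limits of 15.9 and 27.9 CPM lie above the Control level. These counts thus cannot show a difference.

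**Figure D5:**
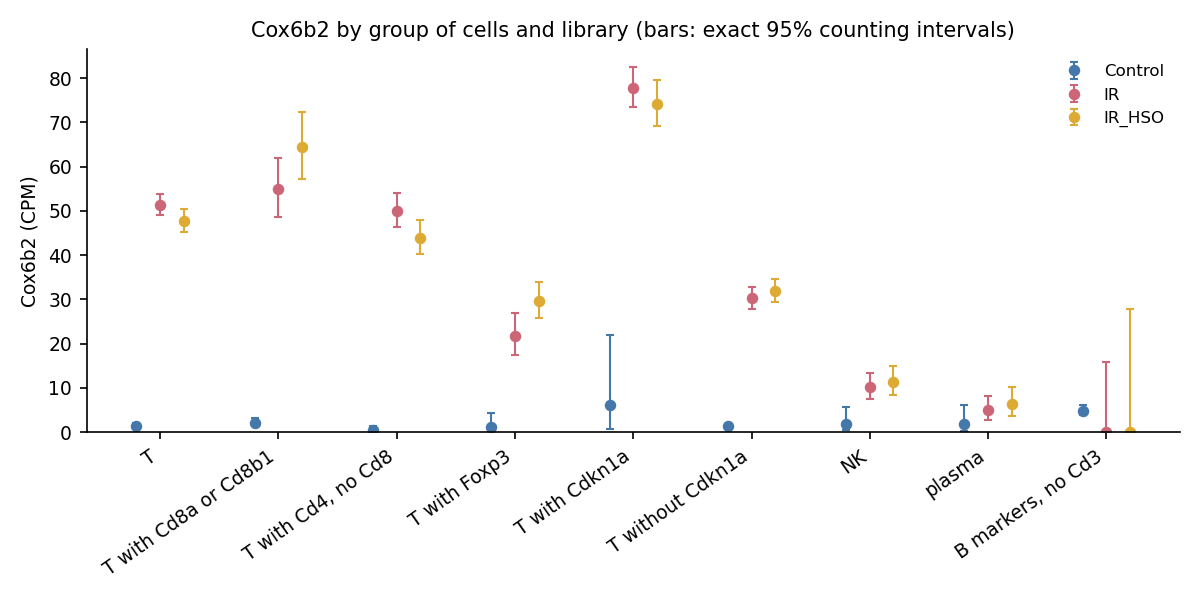
Cox6b2 in CPM (vertical axis, from 0) by group of cells and library, with exact 95% counting intervals. In IR and IR_HSO the T cell groups lie between 21.7 and 77.8 CPM, NK cells at 10.2 and 11.4 and plasma cells at 4.88 and 6.32, while Control lies at or below 6.10 in every group drawn.

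Other isoforms of specialised tissues had few UMIs. Cox6a2, the heart and muscle form, had 68, 19 and 10 UMIs in T cells, 16, 16 and 15 in NK and 10, 15 and 13 in plasma cells, at most 4.45% of COX6A UMIs in any gate. In T cells that was 3.03, 0.561 and 0.348 CPM, a ratio of IR to Control of 0.185 [0.105, 0.312]. It was at 10.3, 3.32 and 3.48 CPM in NK cells, highest in Control, and at 8.58, 4.88 and 4.83 CPM in plasma cells. Cox4i2, the lung form, had 2, 3 and 2 UMIs in T cells and 0 in NK cells. The muscle form Cox7a1 had 4, 5 and 7 in T cells, and Ndufa4l2, known from hypoxia, had 0, 3 and 3 in T and 0, 6 and 7 in plasma cells. With 0 UMIs in all gates and libraries were 6 entries: Cox7b2, Cox8b, Cox8c, Ndufb4c, Ndufb11b and a second entry of Atp5o. Cox7a2l gave 73.9%, 67.9% and 67.4% of COX7A UMIs in the T gate and 54.6%, 54.9% and 56.3% in the NK gate.

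Genes that serve the pathway were read from 8 lists in T cells, to be set beside the 22.9% higher and 5.62% lower of all features for IR to Control (median 0.13) and 15% and 13.3% for IR_HSO to IR (median 0.02). The mitochondrial ribosome, which makes the mt- proteins, had 72 of 75 genes at 10 CPM. Against Control 17 counted as higher and 0 as lower in IR (median 0.24), and 2 as higher and 30 as lower in IR_HSO than in IR (median -0.29). The 17 are 23.6% of the list, at the background, and the 30 are 41.7%. Mrps25 was at 38.3, 49.7 and 26.8 CPM and Mrpl22 at 26.4, 31.4 and 19.3 CPM, while Mrpl52, at 157, 189 and 275 CPM, and Mrpl23, at 26.9, 22.7 and 35.2 CPM, were highest in IR_HSO. Of 16 electron carriers, translocators and channels (median 0.21 and -0.22), against Control 3 counted as higher in IR, and 4 as lower in IR_HSO than in IR. Cytochrome c (Cycs), the carrier between complexes III and IV, was at 109.7, 127 and 74.1 CPM, and Etfb, of the electron transfer flavoprotein, at 46.7, 77.3 and 54.8 CPM. Of 26 protein import and quality control genes (median 0.15 and -0.13), 2 were higher in IR, then 2 higher and 8 lower (30.8%) in IR_HSO. Hspd1 and Hspe1, the chaperonin pair of the matrix, had the lowest IR_HSO to IR ratios of that list, at 233, 223 and 118 and 582, 512 and 288 CPM.

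Of 32 further assembly factors (median 0.14 and -0.06), against Control 3 (9.38%) counted as higher and 1 as lower in IR, and 4 (12.5%) higher and 6 (18.8%) lower in IR_HSO than in IR. Sdhaf1, an assembly factor of complex II, was at 52.9, 105 and 154 CPM, 1.98-fold [1.85, 2.12] the Control level in IR and 1.47-fold [1.40, 1.53] the IR level in IR_HSO, beside a nearly level Sdha. Among 19 genes of the tricarboxylic acid cycle (median 0.05 and -0.12), 0 passed the limit between Control and IR, and Suclg1, at 93.1, 95.5 and 67.2 CPM, and Mdh2, at 158, 171 and 131 CPM, were lower in IR_HSO. Of 9 regulators of mitochondrial gene programs (median -0.01 and 0.00), Gabpb1, at 19.9, 27.1 and 25.6 CPM, was higher in IR, and Nrf1, at 43.6, 43.1 and 54.2 CPM, and Ppargc1b, at 16.1, 13.1 and 16.7 CPM, were higher in IR_HSO. Of 16 genes that maintain mitochondrial DNA and RNA (median 0.04 and -0.05), the DNA polymerase Polg, at 39.9, 31.6 and 33.0 CPM, was lower in IR and 0 passed in IR_HSO. Of 13 genes of mitochondrial dynamics and turnover (median 0.13 and -0.04), the fission gene Fis1, at 139.9, 185 and 181 CPM, was higher in IR, and Pink1, at 24.9, 31.0 and 44.8 CPM, was higher and Apool, at 17.0, 21.2 and 14.8 CPM, lower in IR_HSO.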

How the data were processed

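The deposited tables hold raw UMI counts per gene and cell barcode, 1 table per library. Per the submitters' processing notes the authors used Cell Ranger 7.0.1 and GRCm39; how they called cells and whether they removed doublets is not given in the sources used here. Here the counts of gated cells were summed per library and gate and divided by the gate's UMIs; no doublet caller was run, but cells in the plasma gate and another gate were left out. A pseudocount of 1 CPM, a minimum mean of 10 CPM and the limits of 25% above and 20% below were used. Ratio intervals are exact conditional and shares exact Clopper-Pearson, at 95%. Members, gene lists and markers were chosen with earlier results of these data known. The text names, by rule, all mt- members, Sdha to Sdhd, isoforms of other tissues, Atpif1, Cox7a2l, Ndufa4, Cox4i1, the 4 highest and 4 lowest nuclear members per gate and comparison with an interval clear of no change, and 2 of each end per pathway list. A member that the rule names is not reported here. Cox8a, Cox5a in T, Atp5g3 in T, Cox6b1, Ndufaf2 and Ndufaf7 in T were named after their values were seen. Of the lists, 1 gene (Fastkd4) was not matched. Motifs used RefSeq promoters, and copies of mt- genes were searched with BLAST+ 2.17.0. Python 3.11.15, numpy 2.4.6, scipy 1.17.1 and pandas 2.3.3 were used, and the ratio and interval code was tested on simulated data.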

Additional observations from a re-analysis of the deposited data

Results flagged for a closer look

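The gates differed in direction between the same libraries, and the difference between gates was not tested, as each group is 1 library. Summed nuclear members, IR to Control, had log2 ratios of 0.20 in T and 0.10 in NK cells against -0.79 in plasma cells. Summed mt- members, IR to Control, had 0.066 in T and 0.38 in NK cells against -0.55 in plasma cells. Summed nuclear members, IR_HSO to IR, had -0.16 in T and -0.074 in NK cells against 0.18 in plasma cells. As a share of the UMIs left without immunoglobulin, ribosomal, pancreatic, haemoglobin and mt- genes several of these differ: nuclear members, IR to Control, were 0.082 in T, 0.099 in NK and -0.035 in plasma cells, mt- members turned to -0.046 in T and 0.20 in plasma cells beside 0.38 in NK cells, and nuclear members, IR_HSO to IR, were -0.091 in T and 0.12 in plasma cells and turned to 0.055 in NK cells.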

How the results depend on the processing

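No paired analysis was possible because each group is 1 library, and for the same reason no library could be left out. The values that follow are log2 ratios of summed shares, as IR to Control and then IR_HSO to IR where both moved beyond their counting interval; those that stayed within it are not repeated. The cause of each shift was not tested. With a limit of 5% on mt- UMIs the ratios were nuclear IR to Control 0.21 in T and 0.14 in NK, nuclear IR_HSO to IR -0.14 in T, mt- IR to Control 0.021 in T, 0.19 in NK and -0.62 in plasma, mt- IR_HSO to IR 0.21 in T and 0.41 in plasma. With a limit of 20% the ratios were nuclear IR_HSO to IR -0.16 in T, mt- IR to Control 0.080 in T and 0.41 in NK, mt- IR_HSO to IR 0.35 in T and 0.51 in plasma. With no limit on mt- UMIs the ratios were nuclear IR_HSO to IR -0.17 in T, mt- IR to Control 0.080 in T, mt- IR_HSO to IR 0.36 in T, 0.32 in NK and 0.52 in plasma. With a minimum of 1000 UMIs per cell the ratios were mt- IR to Control 0.057 in T and 0.32 in NK, mt- IR_HSO to IR 0.32 in T and 0.27 in NK. As a share of the UMIs left without immunoglobulin, ribosomal, pancreatic, haemoglobin and mt- genes the ratios were nuclear IR to Control 0.082 in T and -0.035 in plasma, nuclear IR_HSO to IR -0.091 in T, 0.055 in NK and 0.12 in plasma, mt- IR to Control -0.046 in T and 0.20 in plasma, mt- IR_HSO to IR 0.38 in T, 0.35 in NK and 0.40 in plasma. With each cell weighing alike the ratios were nuclear IR to Control 0.17 in T, -0.060 in NK and -0.67 in plasma, nuclear IR_HSO to IR -0.14 in T, -0.0095 in NK and 0.15 in plasma, mt- IR to Control 0.14 in T, 0.69 in NK and -0.13 in plasma, mt- IR_HSO to IR 0.23 in T, 0.072 in NK and 0.38 in plasma. With cells of 2 gates kept the ratios were nuclear IR to Control 0.16 in T, 0.063 in NK and -0.69 in plasma, nuclear IR_HSO to IR -0.15 in T, -0.050 in NK and 0.066 in plasma, mt- IR to Control 0.039 in T, 0.34 in NK and -0.45 in plasma, mt- IR_HSO to IR 0.32 in T, 0.25 in NK and 0.42 in plasma. With cells holding markers of another class left out the ratios were nuclear IR to Control 0.24 in T, 0.045 in NK and -0.63 in plasma, nuclear IR_HSO to IR 0.24 in plasma, mt- IR to Control 0.077 in T and 0.47 in NK, mt- IR_HSO to IR 0.30 in T and 0.20 in plasma. With at least 1 Cd3 UMI the ratios were nuclear IR to Control 0.18 in T, mt- IR to Control 0.091 in T, mt- IR_HSO to IR 0.28 in T. With at least 4 Cd3 UMIs the ratios were nuclear IR to Control 0.22 in T, mt- IR to Control 0.044 in T, mt- IR_HSO to IR 0.33 in T. In T cells with Cd8a or Cd8b1 alone the ratios were nuclear IR to Control 0.21 in T, mt- IR to Control 0.081 in T. In T cells with Cd4 and no Cd8 the ratios were nuclear IR_HSO to IR -0.16 in T, mt- IR to Control 0.086 in T, mt- IR_HSO to IR 0.33 in T. In NK cells that also had Klrb1c the ratios were nuclear IR to Control 0.13 in NK, nuclear IR_HSO to IR -0.10 in NK, mt- IR to Control 0.30 in NK, mt- IR_HSO to IR 0.35 in NK. With at least 30 Jchain UMIs the ratios were nuclear IR to Control -0.68 in plasma. Without the 6 mt- genes matched by a nuclear transcript over at least 90% of their length, an alternative added after the data were seen, the ratios were mt- IR to Control 0.074 in T, 0.41 in NK and -0.49 in plasma, mt- IR_HSO to IR 0.25 in T, 0.16 in NK and 0.43 in plasma. The direction turned in 4 of these: mt- in T and plasma and nuclear in NK with the remaining-gene denominator, and nuclear in NK with each cell weighing alike. Of the counts of nuclear members past the limit, centring on all features gave 10 higher and 6 lower in T (IR to Control), 15 higher and 16 lower in plasma (IR to Control) and 9 lower in plasma (IR_HSO to IR). Over all features, IR to Control, centring gave 1119 higher and 859 lower of 8362 in T and 1455 and 1455 of 5245 in plasma. For IR_HSO to IR in plasma it gave 1052 lower of 5245. At 1.5-fold the counts were 1 higher and 1 lower in T for IR to Control, 3 lower in T for IR_HSO to IR, 2 higher and 3 lower in NK for IR to Control, 2 higher and 2 lower in NK for IR_HSO to IR, and 12 higher in plasma for IR_HSO to IR. The share of all features at 1.5-fold is not given here, so these counts have no background. A minimum of 1 CPM gave 3 higher in plasma for IR to Control, and one of 50 CPM gave 1 lower in T for IR to Control. Of 480 values of single members under these alternatives 471 kept their direction and 9 turned. In 4 the counting interval left out no change: mt-Co1 in T was -0.045 for IR to Control with the remaining-gene denominator, Cox6b2 was 0.23 for IR_HSO to IR in T cells with Cd8a or Cd8b1, and with cells holding other markers left out Atp5g2 in plasma was 2.21 for IR to Control and mt-Atp6 in plasma 0.055 for IR_HSO to IR, on 6, 74 and 144 cells. In 5 the interval spanned no change: with those cells left out mt-Atp8 in NK was 0.11 and mt-Atp6 in plasma -1.41 for IR to Control and Cox6b2 in plasma -0.028 for IR_HSO to IR, which with cells of 2 gates kept was -0.47, and with the remaining-gene denominator Ndufab1 in plasma was 0.52 for IR to Control. In Control the NK gate held 336 cells and the plasma gate 58, which limits the precision of ratios to Control there.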
